A study of Homo sapiens with 16 samples.

Results

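The p53 pathway genes described here are MDM2, MDM4, GDF15, BTG2, RRM2B, ZMAT3, TP53INP1, TP53I3 and SESN1, taken by gene symbol from the count table, in which each had a single identifier. They are 9 of its 37864 genes, and all 9 were among the 17991 with enough counts to be tested. RNA was sequenced from MDA-MB-231, an established human line from a triple-negative breast cancer with mesenchymal character, in 4 groups of 4 libraries: the solvent DMSO, afatinib, paclitaxel, and afatinib with paclitaxel (the combination). Afatinib blocks the kinases of the EGFR family irreversibly, and paclitaxel stabilises microtubules and arrests cells in mitosis. All groups share this cell line, so they describe a single tumour's descendants in culture, and doses and exposure times are not given in the sources used here.

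The transcription factor p53 is activated by DNA damage and other stress, binds a response element made of adjoining half-sites, and raises genes that stop the cell cycle, repair DNA, adjust metabolism or start apoptosis. MDM2 is a ubiquitin ligase that marks p53 for degradation and is itself a p53 target, which closes a feedback loop, and MDM4 is its relative that masks the activation domain of p53. Many p53 targets also answer to other factors, among them the p53 relative TP73, FOXO factors and the stress factor ATF4. This describes working p53, whereas MDA-MB-231 is a p53-mutant line, and the activity of p53 was not measured here.

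The libraries held between 28.4M and 48.1M counts. The labels do not tell whether replicates came from separate cultures, so p-values reflect the spread between these libraries, which may be technical. In each group the labelled RNA concentration was 345.6 to 1290.9 ng/µl in replicates 1 and 2 and lower, 118 to 330 ng/µl, in replicates 3 and 4, and the pairs stood apart. Each fit therefore holds this concentration set as a term, and changes within replicates 1 and 2 and within replicates 3 and 4 are given in that order as the within-set values. The 5 markers chosen for the line lay between 420 (EGFR) and 2520 (MSN) CPM, that is counts scaled to the size of the library, in every library. Of 7 luminal and epithelial markers, ESR1, CDH1 and FOXA1 stayed at or below 1.47 CPM, while PGR (3.8 to 6.44), EPCAM (6.6 to 13.7), GATA3 (8.22 to 14.2) and ERBB2 (51.4 to 102 CPM) were higher. Of the blood markers, PTPRC, CD3E and LYZ reached at most 0.116 CPM.

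RefSeq promoter windows on GRCh38.p14, from 250 bases before to 50 after a start, were given for 7 of the 9 genes, in 13 windows. They were compared with the p53 response element, whose half-sites of 10 bases follow each other with no spacer in this search and read alike on both strands. A match with at most 3 mismatches was held by 4 of the 13 windows, from MDM2, SESN1 and GDF15, with 1 MDM2 site shared by overlapping windows. Of 35116 windows of all genes 5.2% held such a match, and only 0.649% held one with at most 2. Windows of BTG2, MDM4, TP53I3 and ZMAT3 held none within the limit. The matches are printed because they show what a p53 element looks like. Genes of this set that changed occur with a match and, as MDM4 and ZMAT3, without. Capitals mark the 20 bases of the match, which has 2 mismatches in MDM2 and 3 in SESN1 and GDF15.
MDM2, chr12:68808903-68808962, plus strand: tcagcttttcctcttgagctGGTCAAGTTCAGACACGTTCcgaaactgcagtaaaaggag
SESN1, chr6:109008998-109009057, minus strand: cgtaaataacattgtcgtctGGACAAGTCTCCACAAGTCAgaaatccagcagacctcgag
GDF15, chr19:18386181-18386207, plus strand: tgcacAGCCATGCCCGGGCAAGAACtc
The MDM2 match begins 94 bases before a RefSeq start at 68809017, which belongs to the later of the promoters of the gene. The SESN1 match begins 49 bases before a start at 109008988, and the GDF15 match 28 bases past a start at 18386158. A match of letters is a description, and binding of p53 was not measured.

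In DMSO these genes were of low to middling abundance. Per length of transcript, as CPM per kilobase (RPKM), RRM2B was the most abundant with a mean of 6.07 (range 5.02 to 7.08), followed by TP53I3 at 5.61 (5.41 to 5.8). MDM2 at 3.76 (3.5 to 3.97) and ZMAT3 at 3.51 (2.72 to 4.26) came next, before MDM4 at 2.44 (1.81 to 3.41) and GDF15 at 1.87 (0.635 to 3.72). BTG2 at 1.2 (0.937 to 1.37), SESN1 at 0.933 (0.81 to 1.09) and TP53INP1 at 0.509 (0.363 to 0.674) were the lowest. Neighbours in this order overlapped over the 4 DMSO libraries, except that TP53I3 lay wholly above MDM2 and SESN1 wholly above TP53INP1. The median of all tested genes was 2.77 RPKM, so 4 of the 9 genes, RRM2B, TP53I3, MDM2 and ZMAT3, were above it.

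**Figure D1:**
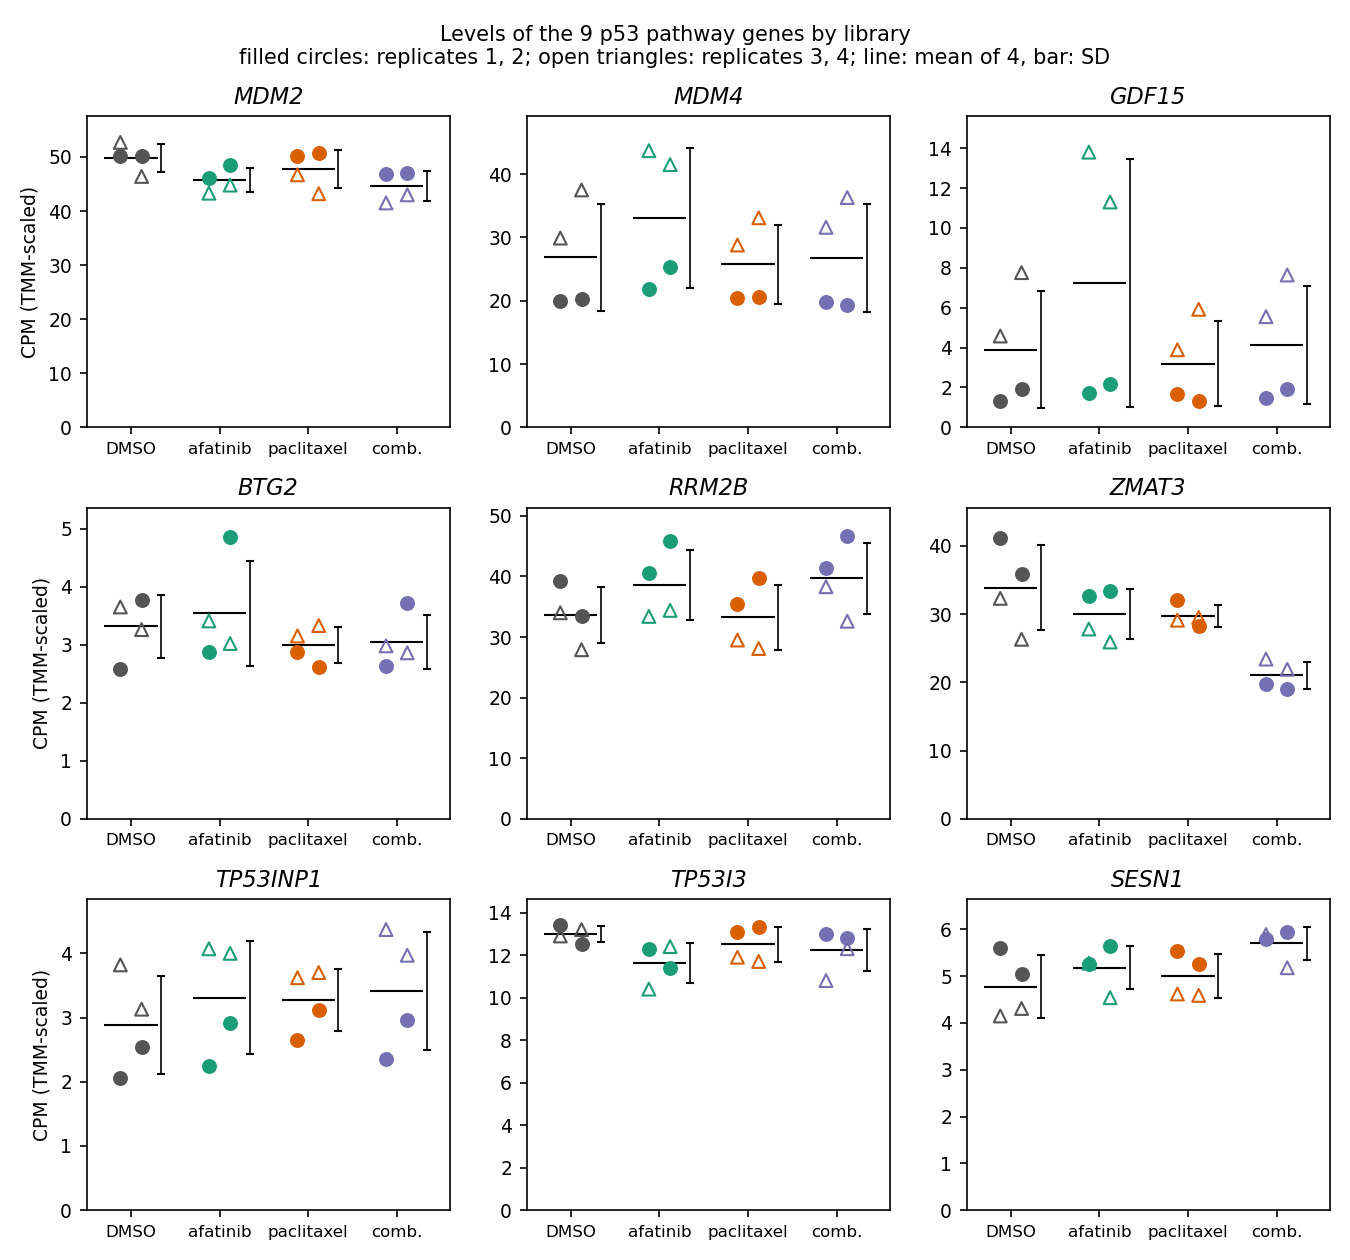
Level of each gene in each of the 16 libraries, in CPM scaled with TMM factors, by treatment. Filled circles are replicates 1 and 2, open triangles replicates 3 and 4, lines the mean of 4 and bars the SD; ZMAT3 in the combination (19 to 23.4 CPM) lies below all other libraries, and the circles and triangles of GDF15 and MDM4 form separate levels in every group.

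Of the 9 genes 6 changed against DMSO in at least 1 treatment: MDM4 and GDF15 with afatinib, and ZMAT3, RRM2B, SESN1 and MDM2 in the combination. With afatinib 2 rose, MDM4 by 22.3% and GDF15 by 69.9%, where edgeR called 19.1% of all tested genes at an adjusted p under 0.05 (9% higher). With paclitaxel alone none of the 9 passed, where 20.5% of all tested genes did. In the combination RRM2B and SESN1 rose by 17.7% and 19.7% while ZMAT3 fell by 37.6% and MDM2 by 10.8%, so that 4 of 9 were called against 38% of all tested genes (18.5% higher, 19.5% lower). The afatinib and combination counts are near these shares. The paclitaxel count was not tested against its share, and none of the counts is a result about the 9 genes as a group. On the log2 scale the median change of the 9 was 0.12 after afatinib, −0.06 after paclitaxel and −0.01 after both drugs, and that of all tested genes was 0 each time. All 3 comparisons share the DMSO libraries. Fewer cells expressing a gene and less RNA per cell cannot be told apart in such bulk libraries.

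**Figure D2:**
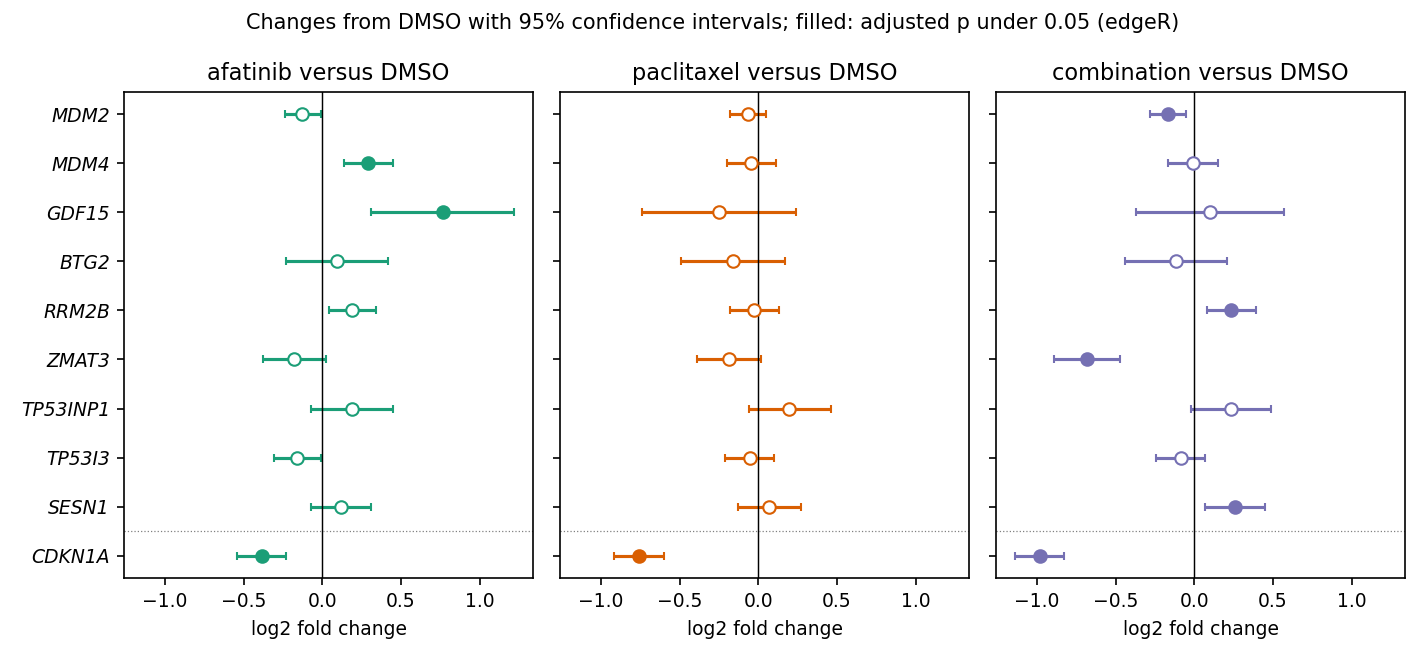
Log2 fold change from DMSO with 95% confidence intervals for the 9 genes and, below the dotted line, CDKN1A, 4 libraries per group, from edgeR. Filled points passed an adjusted p of 0.05; none of the 9 is filled for paclitaxel, whereas CDKN1A is filled in all 3 panels.

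The best known p53 target CDKN1A, which encodes the cyclin-dependent kinase inhibitor p21, is given for comparison. CDKN1A averaged 45.2 ± 7.15 CPM (SD, n = 4) in the solvent, against 34.6 ± 5.23 CPM in afatinib libraries, 26.5 ± 1.6 CPM in paclitaxel libraries and 22.7 ± 0.562 CPM in combination libraries. Its log2 fold change was −0.39 ± 0.075 (± SE) with afatinib (edgeR adjusted p = 0.000659), −0.76 ± 0.076 with paclitaxel (8.57e-08) and −0.98 ± 0.077 in the combination (2.17e-10). With paclitaxel and in the combination all 4 libraries lay below all DMSO libraries. Without the set term the afatinib call was lost (edgeR adjusted p = 0.112).

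Among the regulators of p53, MDM2 (chromosome 12, 68808176 to 68850686) varied little. In replicates 1 to 4 it stood at 50.1, 50.2, 52.7 and 46.4 CPM in DMSO and at 46.1, 48.6, 43.3 and 44.8 CPM with afatinib. It stood at 50.2, 50.8, 46.7 and 43.2 CPM with paclitaxel and at 46.9, 47, 41.5 and 43 CPM in the combination. Groups overlapped over all libraries, but each combination library lay below the DMSO library of its number. MDM2 fell in the combination by 0.16 ± 0.055 on the log2 scale (edgeR adjusted p = 0.02, within-set values −0.10 and −0.23), a call lost without combination replicate 3 (0.0627) or DMSO replicate 3 (0.145). Its differences were −0.13 ± 0.055 with afatinib (adjusted p = 0.106) and −0.07 ± 0.055 with paclitaxel (0.448). Exons of AC025423.4 and of the carboxypeptidase M gene, both on the opposite strand, share 785 and 133 bases with those of MDM2. Exons of AC025423.2 on the same strand share 439 bases. The strand setting of the counting is not given in the sources used here.

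MDM4 (chromosome 1, 204516379 to 204558120) split by concentration set before it split by treatment. In DMSO it stood at 19.9 and 20.3 CPM in replicates 1 and 2 and at 29.9 and 37.5 CPM in replicates 3 and 4. The corresponding values with afatinib were 21.9, 25.4, 43.7 and 41.5 CPM. Within each set both afatinib libraries were above both DMSO libraries, although over all 8 libraries the groups overlapped. With paclitaxel MDM4 stood at 20.5, 20.6, 28.8 and 33.1 CPM and in the combination at 19.8, 19.4, 31.6 and 36.3 CPM, close to the DMSO libraries of the same numbers. MDM4 rose with afatinib by 0.29 ± 0.075 (edgeR adjusted p = 0.00792, within-set values 0.24 and 0.34), and this call held with each of the 16 libraries left out in turn (adjusted p 0.00225 to 0.0384). It differed by −0.04 ± 0.076 with paclitaxel and −0.01 ± 0.076 in the combination. Limma on the authors' log2 values corrected for concentration called MDM4 lower in both (−0.37 and −0.28, adjusted p = 0.00465 and 0.019) and not with afatinib (0.17, 0.229).

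GDF15 (chromosome 19, 18374731 to 18389176), a secreted stress cytokine of the TGF-beta superfamily that p53 and ATF4 both raise, had the widest range relative to its level. In replicates 1 to 4 it stood at 1.33, 1.92, 4.58 and 7.76 CPM in DMSO and at 1.71, 2.17, 13.8 and 11.3 CPM with afatinib. It stood at 1.66, 1.32, 3.89 and 5.92 CPM with paclitaxel and at 1.47, 1.91, 5.55 and 7.64 CPM in the combination. In replicates 3 and 4 both afatinib libraries were above every other library, while in replicates 1 and 2 afatinib and DMSO overlapped. GDF15 rose with afatinib by 0.76 ± 0.21 (edgeR adjusted p = 0.0179), with within-set values of 0.26 and 1.03. The difference between these within-set values was 0.77 ± 0.38 and did not pass (edgeR adjusted p = 1). Leaving out afatinib replicate 3 (adjusted p = 0.0788) or 4 (0.051), or DMSO replicate 1 (0.0515) or 3 (0.0738), ended the call. GDF15 differed by −0.25 ± 0.23 with paclitaxel and 0.10 ± 0.22 in the combination, and its counts were 58 to 545 per library. The direction in the combination turned with log2 concentration added (−0.43, edgeR adjusted p = 0.27). Limma on the authors' corrected log2 values called GDF15 lower in the combination (−0.66, adjusted p = 0.0452) and with paclitaxel (−1.11, 0.00325), and gave 0.34 with afatinib (0.422).

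MDM4 and GDF15 also differed between the concentration sets, and the labels do not tell whether the sets differ in other ways too. Between replicates 3 and 4 and replicates 1 and 2 the difference was 0.74 ± 0.054 in MDM4 and 2.09 ± 0.16 in GDF15 (edgeR adjusted p = 8.6e-12 and 1.44e-09), larger than their changes with afatinib. The mean concentration with afatinib was 1001.8 ng/µl in replicates 1 and 2 and 184.3 ng/µl in replicates 3 and 4, against 1170.7 and 311 ng/µl in DMSO. The mitochondrially encoded share of counts was 2.82% and 7.14% with afatinib in these sets, against 2.32% and 4.4% in DMSO. With the log2 concentration added to the set term, edgeR gave 0.21 for MDM4 (adjusted p = 0.0703) and 0.48 for GDF15 (adjusted p = 0.135), and neither was called. After subtraction of the set means, log2 CPM of these 2 genes correlated by r = 0.903 over the 16 libraries, the highest of the pairs among the 9 genes, as a description of libraries that share treatment, depth and concentration.

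ZMAT3 (chromosome 3, 179017223 to 179072279), a zinc finger protein that binds RNA and acts in splicing and messenger stability downstream of p53, gave the smallest p among the 9 genes against DMSO. In replicates 1 to 4 it stood at 41.1, 35.8, 32.3 and 26.3 CPM in DMSO and at 19.8, 19, 23.4 and 21.9 CPM in the combination. The combination libraries lay below every DMSO library. ZMAT3 stood at 32.7, 33.4, 27.8 and 25.9 CPM with afatinib and at 32, 28.3, 29.1 and 29.5 CPM with paclitaxel, all above the combination libraries. As means this is 33.9 ± 6.22 CPM in the solvent, 29.9 ± 3.69 CPM after afatinib, 29.7 ± 1.59 CPM after paclitaxel and 21 ± 2.01 CPM after both drugs.

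The fall of ZMAT3 in the combination was 0.68 ± 0.099 on the log2 scale (edgeR adjusted p = 1.05e-05). It was called with each library left out in turn (falls of 0.59 to 0.78), within replicates 1 and 2 and within replicates 3 and 4, and in every alternative fit. The within-set values were −0.99 and −0.37. Their difference was 0.61 ± 0.14 (unadjusted p = 0.000387, adjusted p = 0.465 from edgeR), and 0% of all tested genes passed this test. Levels in replicates 1 and 2 of the combination (19.8 and 19 CPM) were near those of replicates 3 and 4 (23.4 and 21.9 CPM), whereas in DMSO they ran from 41.1 down to 26.3 CPM. With afatinib alone ZMAT3 differed by −0.18 ± 0.097 (edgeR adjusted p = 0.22) and with paclitaxel alone by −0.18 ± 0.098 (0.203). Both differences passed without DMSO replicate 4, the lowest DMSO library (adjusted p = 0.0379 and 0.032).

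RRM2B, the p53-induced small subunit of ribonucleotide reductase that supplies deoxynucleotides for repair and for mitochondrial DNA outside S phase, was higher in the combination. In replicates 1 to 4 it stood at 39.3, 33.5, 34 and 27.9 CPM in DMSO and at 41.4, 46.6, 38.3 and 32.6 CPM in the combination. Each combination library was above the DMSO library of its number, while the groups overlapped. RRM2B rose by 0.24 ± 0.073 (edgeR adjusted p = 0.0129), a call lost without combination replicate 3 (0.0631) or DMSO replicate 2 (0.0586). With afatinib it stood at 40.6, 45.9, 33.4 and 34.4 CPM, a difference of 0.19 ± 0.074 (adjusted p = 0.0698) that passed in the fit with replicate blocks (0.0286) and without DMSO replicate 3 (0.0125). With paclitaxel it stood at 35.5, 39.8, 29.5 and 28.1 CPM, a difference of −0.02 ± 0.074.

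SESN1 (chromosome 6, 108986437 to 109094819) encodes a sestrin, which restrains mTORC1 signalling and limits oxidative damage. In replicates 1 to 4 it stood at 5.6, 5.04, 4.15 and 4.31 CPM in DMSO and at 5.79, 5.95, 5.89 and 5.18 CPM in the combination. Only combination replicate 4 lay within the DMSO range. SESN1 rose in the combination by 0.26 ± 0.094 (edgeR adjusted p = 0.0303), a call lost without combination replicate 3 (0.121) or DMSO replicate 2 (0.0509), 3 (0.0806) or 4 (0.0721), and with no filter on low counts (0.131). Its differences with afatinib (0.12 ± 0.094) and paclitaxel (0.07 ± 0.095) did not pass. Exons of AL390208.1 on the opposite strand share 363 bases with those of SESN1, and that gene had 12 counts over all libraries.

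The calls of the combination were also fitted with the RNA concentration. The mean concentration in the combination was 623.3 ng/µl in replicates 1 and 2 and 142.8 ng/µl in replicates 3 and 4. With log2 concentration added to the set term, edgeR gave −0.20 ± 0.076 for MDM2 (adjusted p = 0.0648), 0.20 ± 0.10 for RRM2B (0.172) and 0.22 ± 0.13 for SESN1 (0.261). Each SE was larger than in the main fit, and whether concentration accounts for these changes was not tested. ZMAT3 gave −0.65 in that fit (adjusted p = 0.00167) and was the only one of the 9 still called, while the share of all tested genes called in the combination was 22.8% there against 38%.

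BTG2, TP53INP1 and TP53I3 passed in no comparison with DMSO. BTG2 (chromosome 1, 203305491 to 203309602), an antiproliferative adaptor of messenger deadenylation, ranged from 2.58 to 3.77 CPM in the solvent, 2.88 to 4.85 CPM after afatinib, 2.62 to 3.33 CPM after paclitaxel and 2.63 to 3.72 CPM after both drugs. Over all libraries its groups overlapped throughout, although in replicates 3 and 4 both combination libraries lay below those of the other groups. TP53INP1, a stress-induced cofactor of p53 that also acts in autophagy, ranged from 2.06 to 3.82 CPM in the solvent, 2.25 to 4.07 CPM after afatinib, 2.65 to 3.7 CPM after paclitaxel and 2.35 to 4.37 CPM after both drugs. It was above the DMSO library of the same number in all 4 pairs with afatinib and in all 4 with the combination, with differences of 0.19 ± 0.13 and 0.23 ± 0.12 (edgeR adjusted p = 0.317 and 0.144).

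TP53I3 (chromosome 2, 24077433 to 24085861), a quinone oxidoreductase linked to oxidative stress in p53-driven apoptosis, varied little. It stood at 13.4, 12.5, 12.9 and 13.2 CPM in DMSO and at 12.3, 11.4, 10.4 and 12.4 CPM with afatinib. All 4 afatinib libraries were below all DMSO libraries, yet the difference of −0.16 ± 0.075 did not pass (edgeR unadjusted p = 0.0421, adjusted p = 0.14). Its ranges were 11.7 to 13.3 CPM with paclitaxel and 10.8 to 13 CPM in the combination. At an unadjusted p under 0.05, 5 of the 9 genes passed with afatinib, as did 31.9% of all tested genes.

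With paclitaxel alone the 95% confidence intervals of the edgeR fit ran from −0.18 to 0.05 for MDM2, −0.20 to 0.11 for MDM4, −0.18 to 0.13 for RRM2B and −0.39 to 0.02 for ZMAT3. GDF15 had the widest, from −0.74 to 0.24. The median size of the change over the 9 genes, regardless of sign, was 0.07 against 0.15 over all tested genes. None of the 9 passed at an unadjusted p under 0.05 either, where 32% of all tested genes did, and DESeq2 called none (21.1% of all tested genes). Whether the 9 genes differ here from all tested genes as a group was not tested. By limma on the authors' log2 table corrected for concentration, 2 were called lower, where 23.3% of all genes were called. They were MDM4 by −0.37 (limma adjusted p = 0.00465) and GDF15 by −1.11 (0.00325), both outside these intervals. The mean concentration with paclitaxel was 387.6 and 252.3 ng/µl in the 2 concentration sets, in the order of the within-set values. In DMSO it was 1170.7 and 311 ng/µl, so concentration and paclitaxel treatment varied together. Whether concentration accounts for the limma calls was not tested.

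Adding paclitaxel to afatinib went with lower levels of 3 of the 9 genes, where 27.4% of all tested genes were called (14.3% lower). ZMAT3 was lower in the combination than with afatinib (−29.4%, or −0.50 ± 0.099, edgeR adjusted p = 0.000576), with every combination library below every afatinib library. MDM4 was lower (−18.8%, or −0.30 ± 0.075, adjusted p = 0.00383) and below the afatinib library of its number in all 4 pairs. GDF15 was lower (−37%, or −0.67 ± 0.21, adjusted p = 0.0252), a call lost without afatinib replicate 3 (0.113) or 4 (0.0642), without combination replicate 1 (0.0637) or 3 (0.109), and by DESeq2 (0.0642). These comparisons share the afatinib libraries in which MDM4 and GDF15 were high against DMSO, so they are no separate evidence of that level.

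Adding afatinib to paclitaxel changed 2 of the 9, where 24.2% of all tested genes were called (12.6% higher, 11.6% lower). ZMAT3 was lower (−29.1%, or −0.50 ± 0.10, edgeR adjusted p = 0.000866). RRM2B was higher by 19.7% (0.26 ± 0.074, adjusted p = 0.0112), above the paclitaxel library of its number in all 4 pairs, a call lost without combination replicate 3 (0.0508). Between the single drugs 3 genes were higher with afatinib than with paclitaxel, where 36% of all tested genes were called (18.9% higher). They were GDF15 (1.02 ± 0.22, edgeR adjusted p = 0.00162), MDM4 (0.34 ± 0.076, 0.0012) and RRM2B (0.22 ± 0.074, 0.0243). The call of RRM2B was lost without afatinib replicate 2 (0.104) or paclitaxel replicate 1 (0.0706) or 4 (0.0705). The within-set values of GDF15 were 0.38 and 1.37. With replicates 1 and 2 only, edgeR called neither GDF15 (0.39, adjusted p = 0.306) nor MDM4 (0.21, 0.126).

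Whether the combination departs from the sum of both single-drug changes was tested as an interaction. Of all tested genes 0.884% passed and of the 9 genes none, by edgeR and by DESeq2, while 2 of the 9 and 12.5% of all tested genes had an unadjusted p under 0.05. Those 2 were ZMAT3, at −0.32 ± 0.14 from the sum (edgeR unadjusted p = 0.032, adjusted p = 0.334, 95% interval −0.61 to −0.03), and MDM4 (−0.26 ± 0.11, edgeR unadjusted p = 0.025, adjusted p = 0.301, 95% interval −0.48 to −0.03). Thus ZMAT3 was called in the combination and with neither drug alone, but the departure from additivity itself did not pass. For RRM2B the interaction was 0.07 ± 0.10 and for SESN1 0.07 ± 0.13.

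The split by concentration set, replicates 3 and 4 minus replicates 1 and 2, changed 6 of the 9 genes, where 69.5% of all tested genes were called (36.2% higher, 33.3% lower). GDF15, MDM4 and TP53INP1 (0.56 ± 0.088) were higher in replicates 3 and 4. RRM2B (−0.32 ± 0.052), SESN1 (−0.20 ± 0.067) and MDM2 (−0.11 ± 0.039) were lower there, all with an edgeR adjusted p of at most 0.0154. BTG2, ZMAT3 and TP53I3 did not pass. The set changed GDF15, MDM4, TP53INP1 and RRM2B by more than any treatment did against DMSO, whereas for ZMAT3, MDM2 and SESN1 the combination gave the larger value. A test of whether a treatment change differs between the sets called none of the 9 genes with any drug by edgeR, and 0% of all tested genes. At an unadjusted p under 0.05, ZMAT3 passed it for paclitaxel and for the combination.

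**Figure D3:**
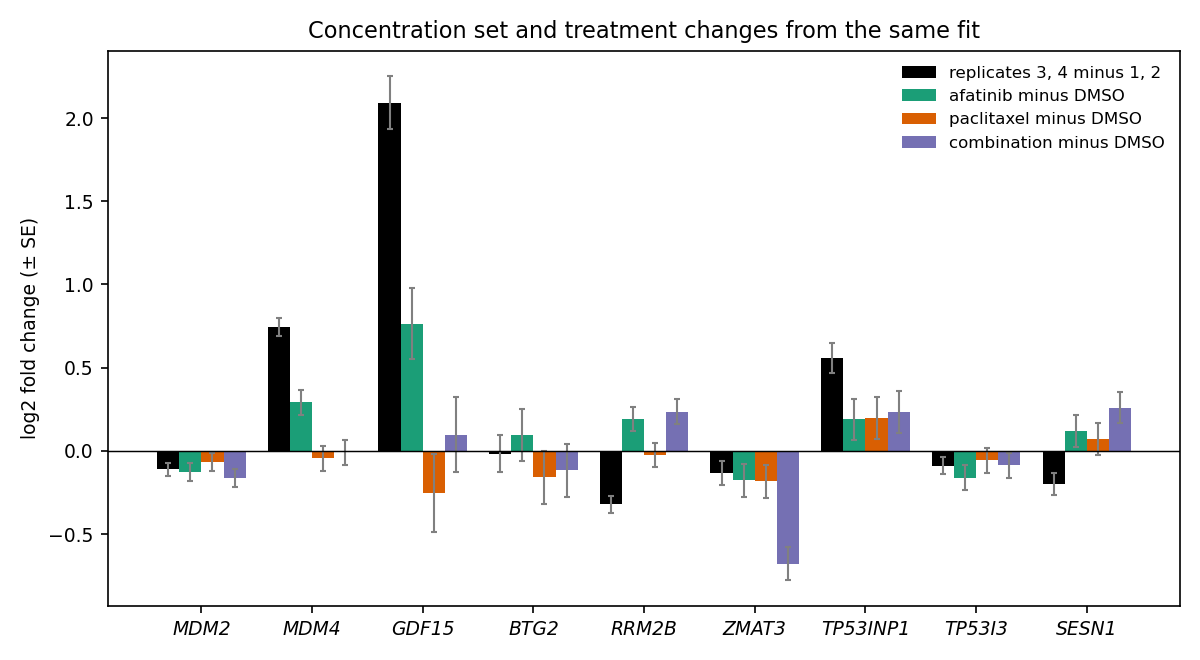
Bars show, per gene, the log2 difference between concentration sets (black) and between each treatment and DMSO (colours) from the same edgeR fit, with ± 1 SE. The black bars of GDF15 (2.09) and MDM4 (0.74) exceed their afatinib bars (0.76 and 0.29), and the combination bar of ZMAT3 (−0.68) is the longest below 0.

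Other p53 targets, 42 of them tested and grouped by role, changed in both directions. With afatinib 4 rose and 8 fell, with paclitaxel 1 rose and 6 fell, and in the combination 6 rose and 14 fell. These are 28.6%, 16.7% and 47.6% of the 42, beside 19.1%, 20.5% and 38% of all tested genes. Their median changes were −0.01, −0.08 and −0.05, against 0 over all tested genes. With the replicate number as a block the paclitaxel count was 12 instead of 7, and the share of all tested genes 25.6% instead of 20.5%. Of the 47 listed, TP53AIP1, SPATA18, GLS2 and EDA2R had too few counts and TIGAR was not analysed here.

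Cell cycle targets, 8 in number, had no member that rose. With afatinib 4 fell, with paclitaxel only CDKN1A, and in the combination 5. These are 50%, 12.5% and 62.5% of the 8, beside 19.1%, 20.5% and 38% of all tested genes in either direction. PLK2 and PLK3, polo-like kinases induced by stress, fell in the combination by 0.56 ± 0.081 and 0.57 ± 0.093 (edgeR adjusted p = 6.92e-06 and 2.25e-05). SFN, the 14-3-3 sigma protein that holds cells in G2, fell with afatinib from 139 to 112 CPM on average (−0.31 ± 0.068, adjusted p = 0.0023), and PLK3 fell there too (−0.40 ± 0.092, 0.00295).

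Apoptosis targets moved both ways. Of 14 tested, 2 rose and 5 fell in the combination, 50% beside 38% of all tested genes. FAS, a death receptor, rose from 3.82 to 5.92 CPM on average (0.64 ± 0.11, edgeR adjusted p = 7.27e-05). BBC3, which encodes the BH3-only protein PUMA, fell from 4.51 to 2.5 CPM (−0.84 ± 0.12, 5.53e-06), and PIDD1, a scaffold for caspase-2, fell from 35.7 to 22.2 CPM (−0.70 ± 0.069, 1.26e-08). PIDD1 also fell with paclitaxel (−0.45 ± 0.068, 3.3e-05), while AEN, an apoptosis-enhancing nuclease, rose (0.23 ± 0.056, 0.00445). TNFRSF10C, a decoy receptor for TRAIL, rose with afatinib from 1.18 to 1.96 CPM (0.73 ± 0.14, 0.000839). Among the 3 repair targets DDB2, a damage sensor of nucleotide excision repair, fell with paclitaxel (−0.28 ± 0.074, 0.00736).

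In metabolism and redox defence, 7 targets were tested, of which 1 rose and 2 fell in the combination, 42.9% beside 38% of all tested genes. PRKAB1, a regulatory subunit of the energy sensor AMPK, rose (0.27 ± 0.066, edgeR adjusted p = 0.00201) and SCO2, an assembly factor of cytochrome c oxidase, fell (−0.49 ± 0.13, 0.00347). The call of SCO2 was lost with log2 concentration added (edgeR adjusted p = 0.0623) and by limma on the authors' corrected values (0.0562). FUCA1, a lysosomal fucosidase, rose with afatinib (0.30 ± 0.079, 0.00781). This call was lost with log2 concentration added (0.22, edgeR adjusted p = 0.0727) and by limma on the authors' corrected values (0.17, 0.295). SESN2 fell in the combination from 17.1 to 11.8 CPM on average (−0.54 ± 0.12, edgeR adjusted p = 0.00148) and with paclitaxel to 10.7 CPM (−0.67 ± 0.13, 0.000524). SESN1 thus rose in the combination while its paralog SESN2 fell, and SESN3 rose from 1.86 to 4.59 CPM (1.31 ± 0.20, 1.39e-05). SESN3, known as a FOXO target, also rose with afatinib to 3.25 CPM (0.80 ± 0.20, 0.00749). Among targets of other roles, the cytokine gene LIF fell with afatinib (−0.49 ± 0.066, 1.07e-05) and in the combination (−0.47 ± 0.066, 3.37e-06). NINJ1, a protein of plasma membrane rupture, rose with afatinib (0.46 ± 0.079, 0.000157). CYFIP2, a subunit of the WAVE actin regulator, rose with afatinib (0.53 ± 0.13, 0.00529) and in the combination (0.58 ± 0.13, 0.000845), where SUSD6 fell (−0.41 ± 0.082, 0.000284).

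**Figure D4:**
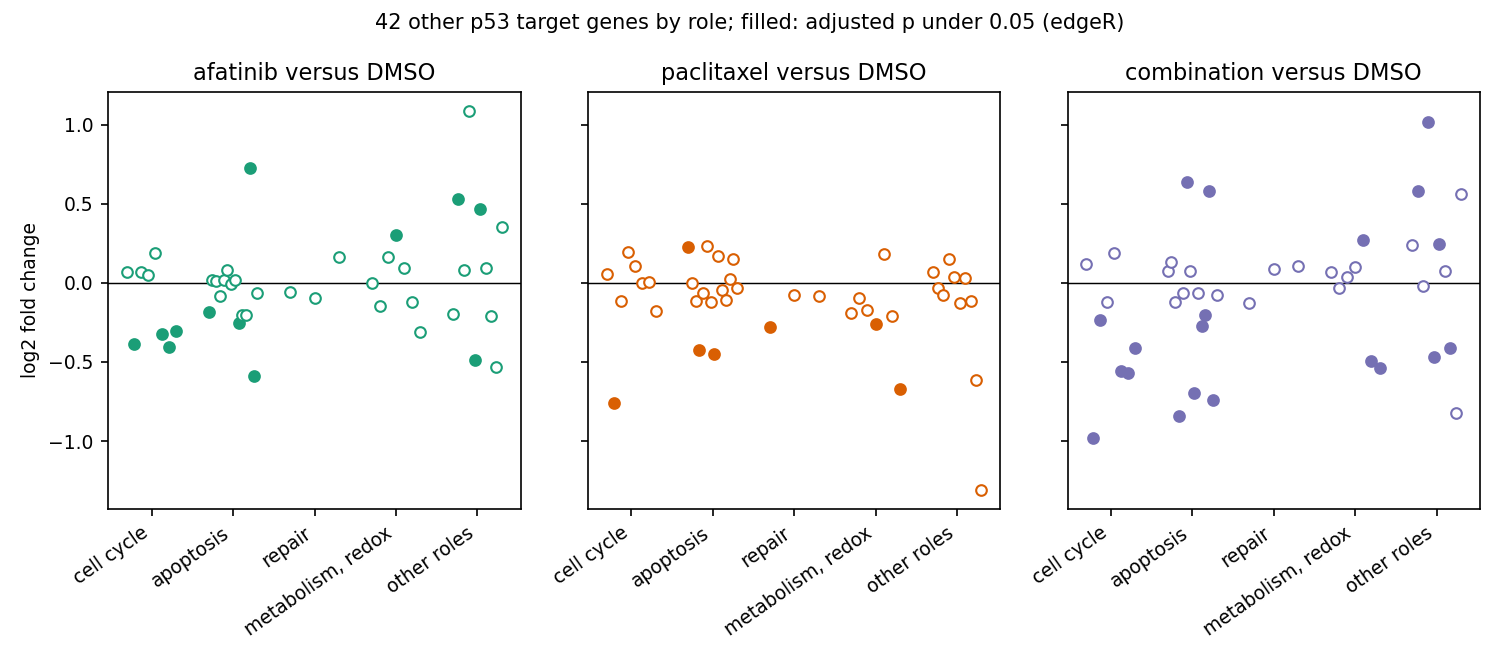
Log2 fold change from DMSO (vertical axis) of the 42 other p53 targets, grouped by role along the horizontal axis, in 3 comparisons. Each point is a gene and filled points passed an edgeR adjusted p of 0.05: 12 after afatinib, 7 after paclitaxel and 20 after both drugs, on either side of 0.

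The other reductase subunits listed, RRM1 and RRM2, fell with paclitaxel and in the combination, and RRM2 also with afatinib. RRM2, the S-phase small subunit that competes with RRM2B for RRM1, averaged 334 CPM in the solvent and fell to 260 CPM after afatinib (−0.36 ± 0.054, edgeR adjusted p = 3.81e-05), 222 CPM after paclitaxel (−0.59 ± 0.054, 2.57e-08) and 182 CPM after both (−0.87 ± 0.054, 4.83e-12). RRM1, the large subunit, fell with paclitaxel (−0.35 ± 0.053, 2.6e-05) and in the combination (−0.33 ± 0.053, 1.61e-05), and differed by −0.12 ± 0.052 with afatinib (0.121). TOB1, an antiproliferative relative of BTG2, rose with paclitaxel from 12.3 to 17.8 CPM (0.53 ± 0.084, 5.12e-05). The list of 10 relatives of the 9 genes holds paralogs and RRM1, which is a partner and no paralog of RRM2B. Over this list 1 rose and 2 fell with afatinib, 2 rose and 5 fell with paclitaxel, and 2 rose and 3 fell in the combination. These are 30%, 70% and 50% of the list, beside 19.1%, 20.5% and 38% of all tested genes.

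Of 18 tested relatives and regulators of p53, 1 rose and 3 fell with afatinib, 2 rose and 4 fell with paclitaxel, and 3 rose and 7 fell in the combination. These are 22.2%, 33.3% and 55.6% of them, where all tested genes gave 19.1%, 20.5% and 38%. TP73, whose protein binds the same elements as p53, averaged 7.96 CPM in the solvent and fell to 4 CPM after paclitaxel (−0.996 ± 0.10, edgeR adjusted p = 1.55e-07) and 3.01 CPM after both drugs (−1.40 ± 0.11, 1.36e-10). TP63 had too few counts to be tested. PPP1R13L, an inhibitor of p53 known as iASPP, fell with afatinib (−0.37 ± 0.06, 8.59e-05), and TP53BP2, the related ASPP2 that aids p53, rose in the combination (0.28 ± 0.049, 6.88e-05) and with paclitaxel (0.23 ± 0.05, 0.00122). Limma on the authors' corrected values did not call TP53BP2 with paclitaxel (0.14, adjusted p = 0.0798). TP53BP1, a scaffold of DNA break repair, fell with paclitaxel (−0.26 ± 0.054, 0.00119). CHEK1, a checkpoint kinase that phosphorylates p53, fell in the combination (−0.34 ± 0.055, 2.11e-05), and CHEK2, which does so too, rose with afatinib (0.33 ± 0.083, 0.00708).

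Genes of the ATF4 stress response, the other known route to GDF15 and SESN2, did not move in 1 direction. Of 10 tested, 1 rose and 4 fell in each comparison with DMSO, 50% each time where 19.1%, 20.5% and 38% of all tested genes were called. In the interaction 3 of the 10 passed by edgeR, all above the sum of both single-drug changes. This is 30% of the list, beside 0.884% of all tested genes. DDIT3, a death-promoting factor induced by ATF4, rose each time, from 9.04 CPM in the solvent to 13.1 CPM after afatinib (0.52 ± 0.12, edgeR adjusted p = 0.00266), 14.8 CPM after paclitaxel (0.72 ± 0.12, 8.57e-05) and 17.2 CPM after both (0.92 ± 0.11, 8.75e-07). CHAC1, a glutathione-degrading ATF4 target, fell with paclitaxel (−1.63 ± 0.12, 9.45e-10) and in the combination (−1.06 ± 0.11, 4.01e-08). ASNS, asparagine synthetase, fell with afatinib (−0.54 ± 0.12, 0.00317), as did TRIB3, a pseudokinase induced by ATF4 (−0.29 ± 0.067, 0.00348, not called by limma on the authors' corrected values at 0.142). Whether ATF4 had a part in the changes of GDF15 or SESN2 was not tested. VLDLR, a lipoprotein receptor, fell with paclitaxel (−0.69 ± 0.092, 6.8e-06) and in the combination (−0.60 ± 0.091, 1.08e-05).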

How the data were processed

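Whole-number counts per gene were deposited by the authors; the submitters' processing notes name STAR 2.7.5b, hg38 and featureCounts of Subread 2.0.1. Deposited log2 values, corrected by the authors for RNA concentration, served as an alternative, and deposited gene lengths gave RPKM. A further 2 columns of the deposited tables were not used. Genes were kept by filterByExpr (minimum count 10, minimum total 15), scaled by TMM and tested in edgeR 4.0.16 (R 4.3.3) by its robust quasi-likelihood test, all 16 libraries in 1 fit with group and concentration set. Calls are at an adjusted p (Benjamini-Hochberg over all 17991 genes) under 0.05. The procedure was first run on simulated counts with a set difference and with changes in afatinib only. Effects of RNA concentration within a set were not simulated. CPM are TMM-scaled, and the SD of a group spans both sets. Each SE was derived from the log2 fold change and its F statistic. The common biological coefficient of variation was 7.41%. Positions are from GENCODE v29 (GRCh38).

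Named are the 9 genes, CDKN1A and, per list and comparison with DMSO, up to 3 called genes with the smallest p. The text prints those whose call no single left-out library changed, a choice made with the values in view. A search for genes patterned like a member called in at least 2 comparisons with DMSO applied to no gene. The members and lists were chosen with earlier results of these data known. Same-numbered libraries deviated together from their group means (r 0.37 to 0.7, median 0.59, 24 pairs). Other numbers of a set did so too (0.38 to 0.67, median 0.5), since the set difference remains in these deviations. Whether numbers pair the libraries is therefore not settled, and comparisons by number are descriptions. Alternatives were RLE scaling, DESeq2 1.42.0, no filter, no set term, a replicate block, the set term plus log2 concentration, each pair of replicates alone, each library left out, and limma 3.58.1 on the deposited log2 values. The limma fit kept the concentration set term, in addition to the authors' correction for concentration. The other genes of that rule, and 1 further gene, are not reported here.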

Additional observations from a re-analysis of the deposited data

How the results depend on the processing

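Over 111 gene-level results, 2553 of 2775 values under the alternatives kept direction and side of the threshold, 171 lost the call, 9 gained it and 42 changed sign, 0 of them in a result called in the main fit. A value that changed sign is counted only there, also where it passed, as GDF15 did in the combination by limma. The replicate block gave 3, 0 and 4 of the 9 genes for afatinib, paclitaxel and the combination against DMSO (2, 0 and 4 with the set term), and 24.7%, 25.6% and 42.7% of all tested genes. Of these genes' calls it changed only RRM2B with afatinib. It gave 2 calls among the other p53 targets for the interaction, where the set term gave 0 (9 at an unadjusted p under 0.05, 0 by DESeq2).

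Counts of the 9 genes called, each with the share of all tested genes, were as follows. Without a set term there were 0 for afatinib (2.11%), 1 for the combination (12.8%), 1 for the combination against afatinib (6.35%), 1 against paclitaxel (4.27%) and 0 between single drugs (9.19%). With log2 concentration added there were 0 for afatinib (13.7%) and 1 for the combination (22.8%). With replicates 1 and 2 only there were 0 for afatinib (6.94%), 1 for paclitaxel (9.92%), 1 for the combination (26.1%), 1 against each single drug (14.1% against afatinib, 11% against paclitaxel) and 0 between them (20.2%). With replicates 3 and 4 only there were 1 for afatinib (2.9%), 1 for the combination (17.5%), 1 against afatinib (11.1%) and 0 against paclitaxel (7.13%). With limma on the authors' log2 table there were 0 for afatinib (10.9%), 2 for paclitaxel (23.3%), 5 for the combination (31.1%), 1 for the combination against paclitaxel (18.2%) and 2 between single drugs (34%). In the combination it lost MDM2 (−0.11, adjusted p = 0.232) and gained MDM4 and GDF15, both lower, and between single drugs it lost RRM2B (0.15, 0.251). Without the filter paclitaxel gave 1, ZMAT3 (10.3%), and the combination 3, without SESN1 (17.6%). Fits on a pair of replicates hold fewer samples; for the others the cause was not tested. Leaving out single libraries gave 1 to 3 for afatinib, 0 to 1 for paclitaxel, 1 to 4 for the combination, 2 to 3 and 1 to 2 for the combination against afatinib and paclitaxel, 2 to 3 between single drugs and 0 to 0 for the interaction. The counts of 1 came without afatinib replicate 3 or 4 or DMSO replicate 1 (afatinib), without DMSO replicate 4 (paclitaxel) and without combination replicate 3 (the combination, and against paclitaxel). The combination gave 2 without DMSO replicate 2 or 3.

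Sign changes, none in a result called in the main fit, were these. With replicates 1 and 2 only, paclitaxel gave 0.01 for MDM2, 0.04 for MDM4, 0.06 for RRM2B and 0.03 for TP53I3, the combination 0.01 for BTG2, the combination against paclitaxel −0.07 for MDM4, and the interaction −0.03 for MDM2 and −0.04 for RRM2B. With replicates 3 and 4 only, BTG2 gave −0.11 with afatinib, ZMAT3 0.00 with paclitaxel and −0.14 between single drugs, and MDM4 0.02 in the combination. With log2 concentration added, the combination gave −0.43 for GDF15 and 0.00 for BTG2, and ZMAT3 −0.01 between single drugs, as with DESeq2 (−0.01) and RLE scaling (0.00). On the authors' log2 table, RRM2B gave 0.09 and TP53INP1 −0.12 with paclitaxel, GDF15 −0.66 (adjusted p = 0.0452) and TP53INP1 −0.03 in the combination, ZMAT3 −0.10 between single drugs, and the interaction 0.11 for GDF15. Ranges over left-out libraries that crossed 0 were −0.11 to 0.19 for BTG2 (afatinib), −0.10 to 0.02 for MDM4 and −0.08 to 0.05 for RRM2B (paclitaxel), −0.06 to 0.05 for MDM4 and −0.10 to 0.26 for GDF15 (combination), −0.03 to 0.06 for MDM4 (combination against paclitaxel), 0.00 to 0.09 for RRM2B (combination against afatinib), −0.02 to 0.05 for MDM2 (interaction) and −0.04 to 0.06 for ZMAT3 (between single drugs).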
